A study of Arabidopsis thaliana with 24 samples.

Results

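A set of 6 receptor kinase genes was followed: ER (AT2G26330), ERL1 (AT5G62230), MOL1 (AT5G51350), RUL1 (AT5G05160), PXC2 (AT5G01890) and SKM1 (AT2G25790). They were chosen by locus, in a set meant for receptor kinases tied to the cambium other than the TDIF receptor PXY. They make up 6 of the 34212 genes in the count table. AT2G25790 entered under the name PXC3, but the RefSeq annotation calls it SKM1 and gives PXC3 to AT2G41820, so SKM1 is used here. A tie of SKM1 to the cambium was therefore not established by its choice. The gene names listed with the study also swap PXC2 and PXC3 between AT5G01890 and AT2G41820. The locus identifiers therefore carry the identity of each gene.

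All 6 encode leucine-rich repeat receptor kinases, which bind a peptide or a partner receptor outside the cell and pass the signal on through a kinase domain inside it. ER (ERECTA) and its relative ERL1 respond to secreted EPF and EPFL peptides in organ growth and stomatal patterning, and are known to hold back premature steps of secondary growth in the hypocotyl. MOL1 (MORE LATERAL GROWTH1) is known as a repressor and RUL1 (REDUCED IN LATERAL GROWTH1) as a promoter of cambium activity in the stem. PXC2 was named for its co-expression with PXY, and SKM1 is known as a receptor of the CLE45 peptide in pollen tubes.

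The RNA came from main-root segments of 9-d-old Arabidopsis plants, taken between 0.5 and 2 cm under the hypocotyl, and 8 groups of 3 libraries were made. Every group, the DMSO controls included, was of the same genotype, a homozygous pANT:XVE>>axr3-1-YFP line in the Col-0 background, in which the ANT promoter drives an estradiol-activated switch for axr3-1-YFP, a stabilised Aux/IAA repressor of auxin signaling. Plants were moved to plates with DMSO, 5 µM estradiol (EST), 1 µM of the cytokinin 6-benzylaminopurine (BAP) or both (EST + BAP), and sampled after 4 or 24 h. The comparisons ask how cambial auxin signaling and cytokinin act on these genes alone and together. The line is a single line, a library pools the root segments of many plants, no group without the transgene was analysed here, and the time points were separate experiments, so that time and experiment cannot be told apart.

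The libraries held 14514022 to 45586679 counts in all, and 6001669 to 40450292 after organelle and ribosomal RNA genes were set aside. DMSO 24 h replicate 1 had 54.1% and BAP 24 h replicate 1 had 32.5% of its counts in nuclear ribosomal RNA. Counts of AXR3, which mix the transgene with the native gene, were higher after 4 h of EST (log2FC 1.69, edgeR adjusted p = 0.0298) and not called after 24 h (log2FC 0.23, edgeR adjusted p = 0.072). They were also higher after BAP without EST, at 4 h (log2FC 1.74, edgeR adjusted p = 0.000209) and at 24 h (log2FC 1.51, edgeR adjusted p = 5.59e-06). Between EST + BAP and BAP the log2FC of AXR3 was 0.79 at 4 h (edgeR adjusted p = 0.0282) and -0.46 at 24 h (edgeR adjusted p = 0.00341, under the fold cutoff), so that EST gave no called rise of AXR3 at 24 h with or without BAP. In its images, the study saw axr3-1-YFP in the cambium after 4 h of EST. After 24 h the signal was seen there and also in part of the phloem and periderm. ARR5, a primary cytokinin response gene, was higher after BAP at 4 h (log2FC 2.26, edgeR adjusted p = 0.00346) and 24 h (log2FC 2.04, edgeR adjusted p = 4.12e-05). Markers of cambium, xylem and phloem were counted in every library, while the summed stomatal lineage markers SPCH, MUTE and FAMA reached at most 0.367 CPM.

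The genes lie on chromosomes 2 and 5 of the TAIR10.1 assembly. ER spans 11208080 to 11214662 on the minus strand and SKM1 11000486 to 11004272 on the plus strand of chromosome 2. On chromosome 5, ERL1 spans 24996129 to 25002439 (plus strand), MOL1 20867599 to 20870848 (minus strand), RUL1 1527768 to 1530205 (plus strand) and PXC2 341376 to 345457 (minus strand). Of these, 3 overlap a gene on the opposite strand. RUL1 shares 74 bp with AT5G05170, the cellulose synthase gene CESA3, which had a median of 538 CPM. PXC2 shares 634 bp with AT5G01895 (median 0.761 CPM) and 196 bp with the noncoding AT5G00810, and ERL1 shares 82 bp with AT5G62240. The library kit keeps the strand, but whether the counting used it is not given in the sources used here, so reads from these shared stretches may belong to either gene. No other gene was at least 95% identical over at least 50% of the length of any of the 6.

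The 250 bases ahead of the annotated start of each gene were searched on both strands for TGTCTC and TGTCGG, cores of auxin response elements, and for AGATCT and AGATTTT, sequences bound by type-B cytokinin response regulators. A match was found in 3 of the 6 windows, which are shown because they hold such letters. The letters run 5′ to 3′ along the gene's own strand, from RefSeq TAIR10.1, and capitals mark the matches. RUL1 (chr5:1527518-1527767, plus strand) has TGTCTC starting 96 bases before the gene and again, on the opposite strand, at the far edge of the window. PXC2 (chr5:345458-345707, minus strand, partly inside AT5G00810) has AGATTTT on the opposite strand 57 bases before the gene, and SKM1 (chr2:11000236-11000485, plus strand) has it on its own strand 114 bases before the gene.
RUL1: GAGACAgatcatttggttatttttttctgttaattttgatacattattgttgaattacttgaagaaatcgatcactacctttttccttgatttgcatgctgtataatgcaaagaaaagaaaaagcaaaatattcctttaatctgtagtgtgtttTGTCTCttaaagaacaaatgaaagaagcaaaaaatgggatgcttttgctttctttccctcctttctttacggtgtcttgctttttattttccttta
PXC2: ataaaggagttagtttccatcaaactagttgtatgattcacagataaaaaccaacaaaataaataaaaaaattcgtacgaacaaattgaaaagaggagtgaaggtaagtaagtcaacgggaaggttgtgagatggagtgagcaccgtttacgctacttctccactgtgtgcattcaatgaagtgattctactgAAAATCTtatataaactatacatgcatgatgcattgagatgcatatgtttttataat
SKM1: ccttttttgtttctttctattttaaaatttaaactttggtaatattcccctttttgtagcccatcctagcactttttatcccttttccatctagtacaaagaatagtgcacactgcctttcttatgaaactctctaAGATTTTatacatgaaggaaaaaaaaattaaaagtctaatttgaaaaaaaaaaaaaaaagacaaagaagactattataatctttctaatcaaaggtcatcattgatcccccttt
Among the 27443 protein-coding genes with a full window, 10.9% held TGTCTC, 4.16% TGTCGG, 5.98% AGATCT and 16.5% AGATTTT. The windows of ER, ERL1 and MOL1 held none of these letters, and a match is only a match of letters.

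Levels are given as CPM, the counts of a gene scaled to a common library size over all 24 libraries with TMM factors. Per kb of exon, which allows genes to be compared, RUL1 had the highest mean level over the libraries (23.7 CPM per kb), followed by MOL1 (13.5), SKM1 (13.3), PXC2 (6.67) and ER (1.05). ERL1 had 0.0146 CPM per kb. MOL1 and SKM1 spanned overlapping ranges, 8.15 to 20.1 and 3.88 to 23.8 CPM per kb, so their order was not the same in every library.

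**Figure D1:**
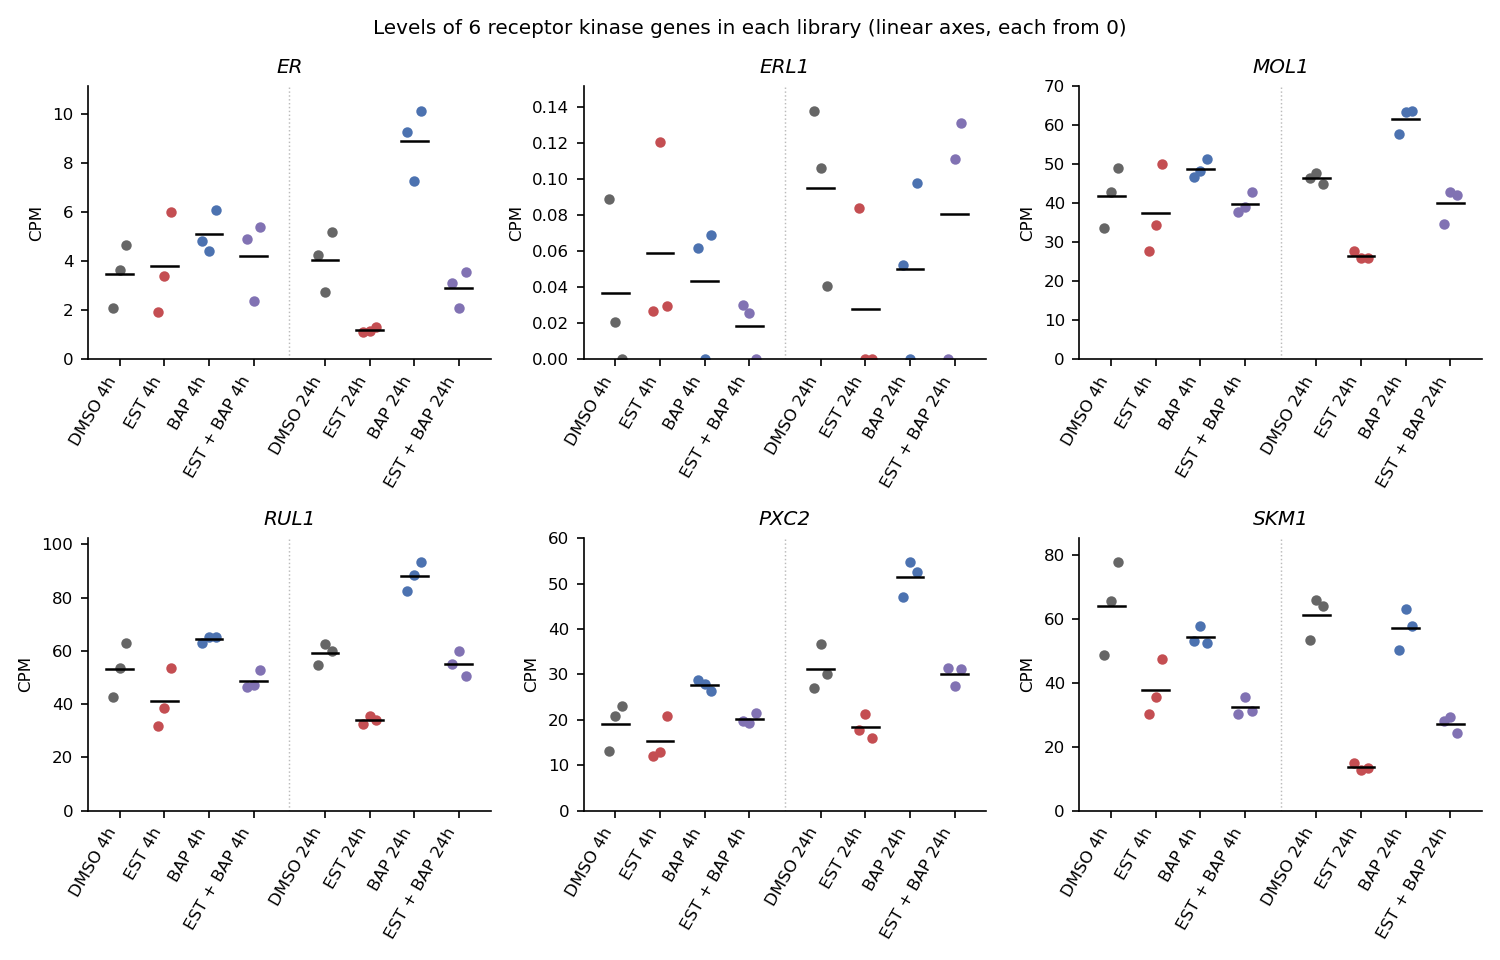
CPM of each gene (linear axes from 0, one scale per gene) in the 3 libraries of each of the 8 groups; points are libraries and black lines are group means. At 24 h the EST libraries lie below the DMSO libraries for ER, MOL1, RUL1, PXC2 and SKM1, and the BAP libraries lie above them for the same genes except SKM1; ERL1 never exceeds 0.138 CPM.

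ERL1 was hardly detected. Its count was 0 to 5 in each library and 36 in all, with 7 libraries at 0. A count of 3, taken as the floor, corresponds to 0.0612 CPM in the deepest and 0.413 CPM in the shallowest library. ERL1 thus stayed near the floor in all 8 groups, was left out of every test by the filter on low counts, and no difference between treatments was detectable at this depth.

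ER had few counts as well, 31 to 235 per library. At 4 h the libraries held 2.11, 3.65 and 4.66 CPM in DMSO, 1.94, 3.40 and 6.02 in EST, 4.82, 4.40 and 6.09 in BAP, and 4.90, 2.36 and 5.38 in EST + BAP, in replicate order 1 to 3, which is kept in all such lists. All 4 treatments overlapped at this time. At 24 h ER had 4.27, 2.73 and 5.19 CPM in DMSO, 1.09, 1.15 and 1.31 in EST, 9.27, 7.28 and 10.1 in BAP, and 3.10, 2.08 and 3.54 in EST + BAP. The EST libraries were the lowest and the BAP libraries the highest of the 24, with EST + BAP overlapping DMSO. Group means ran 7.53-fold apart, from 1.18 ± 0.114 CPM (SD, n = 3) in EST 24 h to 8.89 ± 1.47 in BAP 24 h. Only these ends of the order stood clear of their neighbours, EST + BAP 24 h above EST 24 h and BAP 24 h above BAP 4 h, and the 6 groups between them overlapped from neighbour to neighbour.

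MOL1, the repressor of lateral growth, was counted 337 to 2278 times per library. At 4 h it had 33.6, 43.0 and 49.1 CPM in DMSO, 27.7, 34.3 and 50.1 in EST, 46.7, 48.3 and 51.5 in BAP, and 37.8, 38.9 and 42.9 in EST + BAP. DMSO and EST spread widely and covered most of the range of the other treatments. At 24 h the libraries held 46.4, 47.9 and 44.9 CPM in DMSO, 27.8, 25.9 and 25.9 in EST, 57.7, 63.5 and 63.7 in BAP, and 34.7, 42.9 and 42.2 in EST + BAP. Here the 4 treatments did not overlap at all. The means ran 2.32-fold apart, from EST 24 h to BAP 24 h, and among neighbouring groups in the order only BAP 24 h and BAP 4 h did not overlap.

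RUL1, the promoter of lateral growth, was counted 398 to 3067 times. At 4 h it had 42.9, 53.5 and 63.0 CPM in DMSO, 31.8, 38.6 and 53.6 in EST, 62.9, 65.3 and 65.4 in BAP, and 46.5, 47.2 and 52.9 in EST + BAP. BAP and EST + BAP were apart from each other, and both overlapped DMSO. At 24 h the libraries held 54.9, 62.7 and 59.97 CPM in DMSO, 32.4, 35.6 and 34.1 in EST, 82.5, 88.6 and 93.3 in BAP, and 55.1, 60.1 and 50.4 in EST + BAP. EST was lowest, BAP highest, and EST + BAP lay across DMSO. The means ran 2.59-fold apart, again from EST 24 h to BAP 24 h, and BAP 24 h, BAP 4 h and DMSO 24 h, the top of the order, did not overlap.

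PXC2 was counted 196 to 1404 times. At 4 h it had 13.2, 20.9 and 23.1 CPM in DMSO, 11.96, 12.8 and 20.9 in EST, 28.8, 27.9 and 26.4 in BAP, and 19.8, 19.3 and 21.4 in EST + BAP. All BAP libraries were above all others of that time. At 24 h it had 27.0, 36.7 and 30.0 CPM in DMSO, 17.7, 21.4 and 16.0 in EST, 47.1, 54.7 and 52.6 in BAP, and 31.4, 27.4 and 31.3 in EST + BAP. BAP was again above and EST below the rest, and EST + BAP lay within DMSO. The lowest mean was that of EST 4 h and the highest that of BAP 24 h, 3.38-fold apart, and in the order of means BAP 24 h stood clear of DMSO 24 h and BAP 4 h of EST + BAP 4 h.

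SKM1 had another order of groups. At 4 h it had 48.7, 65.6 and 77.7 CPM in DMSO, 30.3, 35.5 and 47.4 in EST, 53.0, 57.7 and 52.3 in BAP, and 30.3, 35.5 and 31.3 in EST + BAP. Both groups with EST lay below DMSO and BAP. At 24 h the libraries held 53.5, 66.0 and 64.1 CPM in DMSO, 14.9, 12.7 and 13.4 in EST, 50.2, 63.0 and 57.8 in BAP, and 28.1, 29.2 and 24.4 in EST + BAP. DMSO and BAP overlapped, EST + BAP lay between them and EST, and the means ran 4.69-fold apart, from EST 24 h to DMSO 4 h. In the order of means, DMSO 4 h, DMSO 24 h, BAP 24 h and BAP 4 h overlapped from neighbour to neighbour. EST 4 h, EST + BAP 24 h and EST 24 h each stood clear of the group above them.

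Changes between groups were tested with edgeR over all genes that passed the filter, and a gene was called where its log2FC was 0.5 or more in size with an adjusted p not above 0.05. Whether a change means fewer cells of a type or less RNA per cell cannot be told apart in these bulk samples.

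After 24 h of EST, ER, MOL1, RUL1, PXC2 and SKM1 all fell. This made 5 of 5 tested genes, where 15.2% of all 21235 genes tested were called, and their median log2FC was -0.81 against 0.01 over all genes. SKM1 dropped by 2.17 on the log2 scale (SE 0.11, edgeR adjusted p = 1.04e-05) and ER dropped by 1.76 (SE 0.27, edgeR adjusted p = 0.00193). The other 3 changed less. MOL1 had a log2FC of -0.81 (SE 0.08, edgeR adjusted p = 0.000166), RUL1 -0.80 (SE 0.08, edgeR adjusted p = 0.000266) and PXC2 -0.78 (SE 0.14, edgeR adjusted p = 0.00433). No EST library overlapped a DMSO library for any of the 5, but the share of all genes without such overlap was not counted. All 5 calls were made in each of the 6 fits without 1 library, including the one without the DMSO replicate rich in ribosomal RNA.

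After 24 h of BAP, ER, RUL1 and PXC2 rose, 3 of 5 where 34.9% of all genes were called. ER had a log2FC of 1.12 (SE 0.24, edgeR adjusted p = 0.00374), PXC2 of 0.68 (SE 0.12, edgeR adjusted p = 0.00138) and RUL1 of 0.54 (SE 0.09, edgeR adjusted p = 0.000801). The call of RUL1 was at the fold cutoff and was lost without DMSO 24 h replicate 1 (log2FC 0.4958) or without BAP 24 h replicate 3 (log2FC 0.4955). MOL1 passed the test of p (edgeR adjusted p = 0.0036) with a log2FC of 0.38, under the cutoff, and all 3 of its BAP libraries were above all 3 of DMSO. SKM1 was not called (log2FC -0.14, SE 0.11, edgeR adjusted p = 0.333). The 5 genes had a median of 0.54, against -0.02 over all genes.

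With EST + BAP for 24 h, SKM1 alone was called against DMSO, 1 of 5 where 20.5% of all genes were called. It had a log2FC of -1.18 (SE 0.10, edgeR adjusted p = 4.19e-05). ER (log2FC -0.50, SE 0.28, edgeR adjusted p = 0.214), MOL1 (log2FC -0.22, edgeR adjusted p = 0.106), RUL1 (log2FC -0.11, edgeR adjusted p = 0.413) and PXC2 (log2FC -0.08, edgeR adjusted p = 0.65) did not pass. Compared with EST alone or BAP alone, all 5 genes changed.

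Adding EST to BAP lowered 5 of 5 genes at 24 h, where 23.4% of all genes were called in either direction. The log2FC was -1.63 for ER (SE 0.21, edgeR adjusted p = 0.000586), -1.05 for SKM1 (SE 0.10, edgeR adjusted p = 0.000146) and -0.76, -0.66 and -0.61 for PXC2, RUL1 and MOL1 (edgeR adjusted p = 0.000274, 0.000452 and 0.0011). EST + BAP was higher than EST at 24 h, also in 5 of 5, where 30.3% of all genes were called. ER again had the largest log2FC, 1.27 (SE 0.24, edgeR adjusted p = 0.0022), followed by SKM1 with 0.99 (SE 0.09, edgeR adjusted p = 5.32e-05), PXC2 with 0.70, RUL1 with 0.69 and MOL1 with 0.59 (edgeR adjusted p = 0.000934, 0.000162 and 0.000785). SKM1 thus rose when BAP was added to EST, while its DMSO and BAP libraries overlapped.

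**Figure D2:**
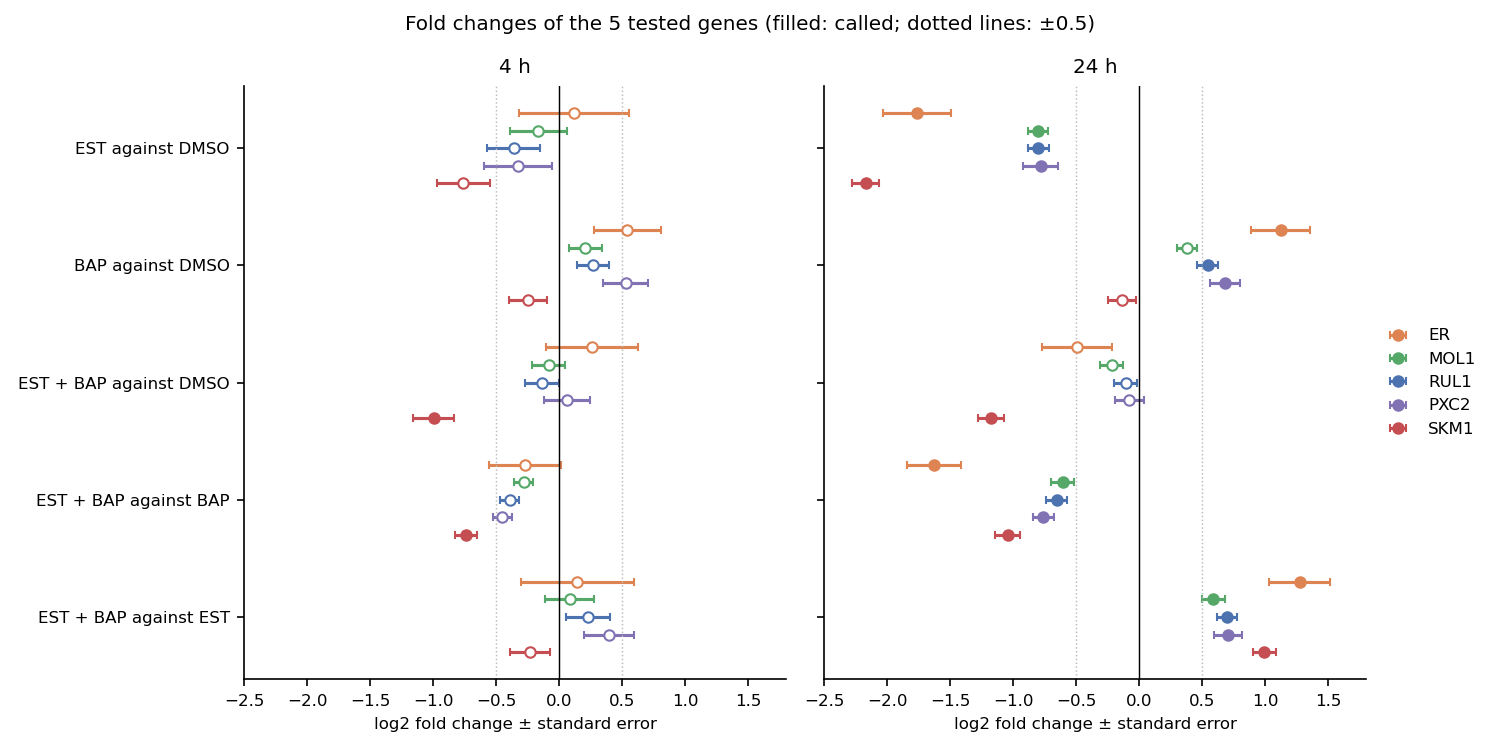
Log2FC of the 5 tested genes with standard errors (x axis) in 5 comparisons (rows) at 4 h and 24 h; filled points were called and dotted lines mark the fold cutoff of 0.5. At 24 h all 5 genes are called lower in EST and in EST + BAP against BAP, and higher in EST + BAP against EST, while at 4 h the filled points are both SKM1.

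At 4 h SKM1 was the only gene of the 6 to be called. It was lower in EST + BAP than in DMSO (log2FC -0.998, SE 0.16, edgeR adjusted p = 0.00803), 1 of 5 where 11% of all genes were called, and this held in 6 of 6 fits without 1 library. The same held for EST + BAP set against BAP alone (log2FC -0.74, SE 0.09, edgeR adjusted p = 0.0237), 1 of 5 where 0.334% of all genes were called. The latter call was lost in 5 of 6 fits without 1 library, in which it held only without EST + BAP 4 h replicate 2, and when all 4 treatments entered the fit (log2FC -0.74, edgeR adjusted p = 0.151). With EST alone SKM1 had a log2FC of -0.76 that did not pass (SE 0.21, edgeR adjusted p = 1).

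The remaining 4-h comparisons gave no call. For EST against DMSO, 0 of 5 genes were called by edgeR and by DESeq2, where edgeR called 0.0139% of all genes. SKM1 alone of the 5 was under 0.05 before adjustment. For BAP against DMSO, 0 of 5 were called by edgeR, where 16.8% of all genes were. PXC2 alone of the 5 was under 0.05 before adjustment (log2FC 0.53, SE 0.18, edgeR adjusted p = 0.0649), and DESeq2 called it (DESeq2 adjusted p = 0.0284), as did edgeR without DMSO 4 h replicate 3 (log2FC 0.68, edgeR adjusted p = 0.0337). ER had a log2FC of 0.54 with a wide error (SE 0.27, edgeR adjusted p = 0.178). For EST + BAP against EST, 0 of 5 were called by edgeR and by DESeq2, where edgeR called 7.54% of all genes, and none of the 5 had an unadjusted p under 0.05. Without EST 4 h replicate 3 PXC2 was called in it (log2FC 0.67, edgeR adjusted p = 0.0142). In EST + BAP against BAP, PXC2 (log2FC -0.45, edgeR adjusted p = 0.0604), RUL1 (log2FC -0.39, edgeR adjusted p = 0.0844) and MOL1 (log2FC -0.28, edgeR adjusted p = 0.173) had small errors and did not pass.

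The spread among replicates at 4 h touched all 5 genes at once. In DMSO and in EST, replicate 1 was the lowest and replicate 3 the highest library for each of ER, MOL1, RUL1, PXC2 and SKM1. The summed cambium markers ANT, WOX4, PXY and HB8 ran the same way, with 182, 230 and 254 CPM in DMSO and 121, 153 and 204 CPM in EST. So did the xylem markers, with 344, 386 and 397 CPM in DMSO and 274, 398 and 424 in EST, and the phloem markers, with 168, 200 and 214 CPM in DMSO and 139, 178 and 218 in EST. The rank of the replicates was thus shared by all 3 groups of vascular markers. The epidermis and root hair markers ran the other way, with 9.14, 4.80 and 2.26 CPM in DMSO and 21.5, 6.44 and 3.36 CPM in EST, and so did the root tip markers PLT1, PLT2 and WOX5, with 3.92, 1.41 and 1.17 CPM and 7.52, 3.76 and 1.70 CPM. The endodermis markers fell from replicate 1 to 3 in DMSO, with 37.7, 29.2 and 19.4 CPM, but not steadily in EST, with 65.15, 27.6 and 32.9 CPM. The part of these shifts in the 4-h results was not tested.

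Differences between responses were tested as interaction terms, called at an adjusted p of 0.05 or less. At 24 h the response of SKM1 to EST + BAP was not the sum, on the log2 scale, of its responses to EST and to BAP. Its EST by BAP term was 1.12 (SE 0.15, edgeR adjusted p = 0.00633), and it was called in each of 12 fits without 1 library. This was 1 of 5 where 1.4% of all genes were called. The log2FC of SKM1 with EST was -2.17 without BAP and -1.05 with it. The terms of MOL1 (0.19, SE 0.12), RUL1 (0.14, SE 0.12), ER (0.13, SE 0.36) and PXC2 (0.02, SE 0.17) did not pass, with edgeR adjusted p from 0.457 to 0.987. At 4 h 0 of 5 terms were called by edgeR and by DESeq2, none had an unadjusted p under 0.05, and edgeR called 0% of all genes, with 893 under 0.05 before adjustment and 8 called by DESeq2.

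**Figure D3:**
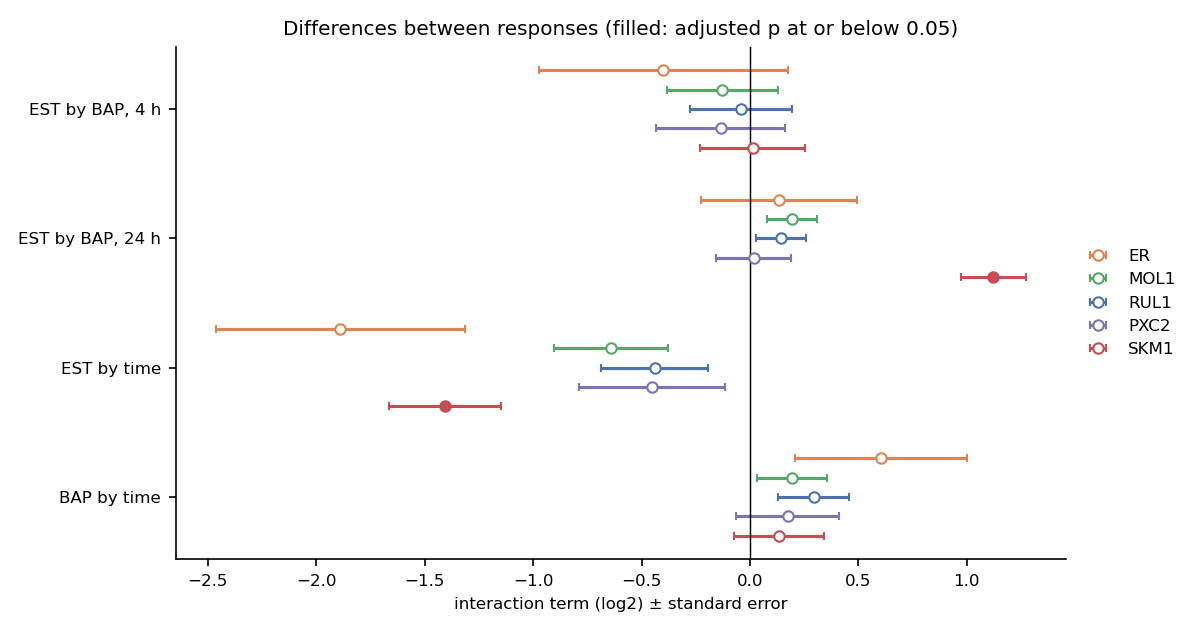
Interaction terms on the log2 scale with standard errors (x axis) for the 5 tested genes in 4 tests (rows); filled points passed an adjusted p of 0.05. SKM1 is filled for EST by BAP at 24 h (1.12) and for EST by time (-1.41), and no other point is filled.

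The response to EST differed between the time points for SKM1, with an EST by time term of -1.41 (SE 0.26, edgeR adjusted p = 0.0113), 1 of 5 where 5.18% of all genes were called. ER had a larger term with a larger error (-1.89, SE 0.57, edgeR adjusted p = 0.0842), and it was called by DESeq2 (DESeq2 adjusted p = 0.0209) and without EST 4 h replicate 1 (log2 term -2.20, edgeR adjusted p = 0.0283). The term of MOL1 (-0.64, SE 0.26, edgeR adjusted p = 0.187) did not pass. For BAP by time 0 of 5 terms were called by edgeR and by DESeq2, none at an unadjusted p under 0.05, where edgeR called 6.82% of all genes.

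The fall of the 5 genes after 24 h of EST came with lower cambium markers. The summed cambium markers were 310 to 375 CPM in DMSO, 160 to 171 in EST, 455 to 558 in BAP and 290 to 329 in EST + BAP, with none of the 4 markers at 0, and all 4 were called lower in EST. ANT, whose promoter drives the induction, had a log2FC of -2.58 in EST (edgeR adjusted p = 5.45e-05). The summed phloem markers APL, SUC2, CALS7 and SEOR1 were 148 to 176 CPM in DMSO, 85.4 to 87.1 in EST, 133 to 135 in BAP and 87.3 to 104 in EST + BAP. With EST 3 of these 4 were called lower, where 15.2% of all genes were called, and SUC2 was not (log2FC -0.06). In EST + BAP against DMSO the same 3 were called lower and SUC2 higher (log2FC 0.59, edgeR adjusted p = 0.0056), where 20.5% of all genes were called. The 6 summed xylem markers were 358 to 406 CPM in DMSO, 387 to 516 in EST, 277 to 313 in BAP and 466 to 486 in EST + BAP. The part of these shifts in the changes of the receptor kinase genes was not tested.

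Set against the cambium markers of the same library, the genes parted. Per 100 CPM of summed markers at 24 h, MOL1 had 13.3 ± 1.52 CPM in DMSO and 16.2 ± 1.05 in EST, RUL1 16.8 ± 0.805 and 20.7 ± 0.663, and PXC2 8.84 ± 0.877 and 11.1 ± 1.25 (SD, n = 3). All EST libraries were above all DMSO libraries for these 3. The share of all genes without overlap on this scale was not counted, for this or any other pair of groups. A gene with an unchanged CPM would also be higher in EST on this scale, as the summed markers were 310 to 375 CPM in DMSO and 160 to 171 in EST. ER had 1.17 ± 0.380 and 0.721 ± 0.0854 and overlapped. SKM1 had 17.3 ± 0.212 CPM per 100 CPM of markers in DMSO, 8.32 ± 0.892 in EST, 10.9 ± 0.551 in BAP and 8.71 ± 1.06 in EST + BAP, and each treatment lay below DMSO with no overlap. At 4 h SKM1 was below DMSO in the same way, with 28.6 ± 1.89 in DMSO, 23.8 ± 1.03 in EST, 17.2 ± 1.73 in BAP and 14.1 ± 0.995 in EST + BAP. MOL1 and RUL1 also stood clear of DMSO at 4 h, above it in EST and below it in BAP and EST + BAP. MOL1 had 18.8 ± 0.450 in DMSO, 23.3 ± 1.14 in EST, 15.4 ± 0.919 in BAP and 17.4 ± 0.766 in EST + BAP, and RUL1 had 23.9 ± 0.807, 25.9 ± 0.631, 20.4 ± 1.196 and 21.3 ± 1.13. ER and PXC2 overlapped DMSO in each treatment at 4 h. These ratios were computed after the levels had been seen. The markers are also no neutral measure of the amount of cambium. All 4 were called lower with EST at 24 h, and ANT was called higher with BAP at both times. ANT fell most of the 4 with EST at 24 h, with a log2FC of -2.58 against -0.95 for WOX4, -0.83 for PXY and -0.60 for HB8. MOL1, RUL1 and PXC2, with log2FC of -0.81, -0.80 and -0.78, lay within the range of WOX4, PXY and HB8. Their higher ratios in EST at 24 h thus rest largely on ANT, and ratios without ANT were not computed. At 4 h ANT also had the largest fall of the 4 with EST (log2FC -0.88, not called). RUL1, with -0.36, lay within the range of WOX4 (-0.32), PXY (-0.39) and HB8 (-0.22), while MOL1 fell less (-0.17). In EST + BAP against DMSO at 4 h, ANT had a log2FC of 0.27, WOX4 -0.31, PXY -0.14 and HB8 -0.0007. MOL1 (-0.09) and RUL1 (-0.14) lay within the range of WOX4, PXY and HB8. The 4-h directions of RUL1 in EST, and of both genes in EST + BAP, may thus also rest on ANT.

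**Figure D4:**
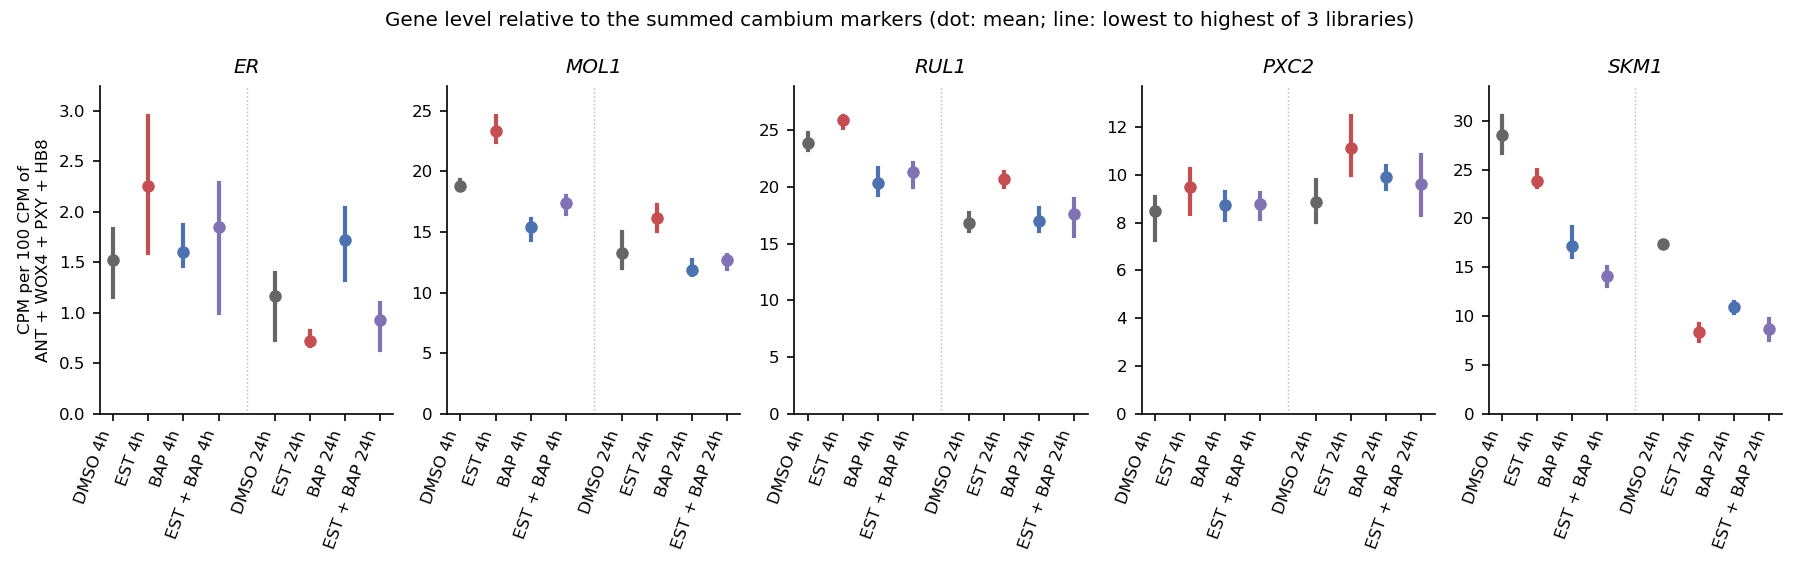
CPM of each tested gene per 100 CPM of the summed cambium markers ANT, WOX4, PXY and HB8 (linear axes from 0) in the 8 groups; dots are means and lines run from the lowest to the highest of 3 libraries. On this scale MOL1, RUL1 and PXC2 at 24 h are higher in EST than in DMSO, with ANT the most lowered of the markers. SKM1 is lower than DMSO in each treatment at both times.

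ER works with co-receptors and is activated by secreted ligands. Of the ERECTA family and co-receptor genes other than ER and ERL1, 4 of 6 were tested, and at 24 h of EST 1 of them fell, the co-receptor gene SERK1 (log2FC -0.63, SE 0.10, edgeR adjusted p = 0.00196), with a list median of 0.06, where 15.2% of all genes were called. SERK1 was higher in EST + BAP than in EST (log2FC 0.80, SE 0.08, edgeR adjusted p = 4.75e-05) and, at 4 h, in EST + BAP than in DMSO (log2FC 0.52, SE 0.09, edgeR adjusted p = 0.0101). The family member ERL2 and TMM, the receptor-like partner in stomatal patterning, did not pass the filter on low counts. Of the 11 genes of the EPF and EPFL ligands, 4 were tested at 24 h (median -0.59 with EST, against 0.01 over all genes). With EST 1 of them, EPFL2, fell (log2FC -1.25, SE 0.18, edgeR adjusted p = 0.00144), where 15.2% of all genes were called. EPFL2 also fell when EST was added to BAP (log2FC -1.54, SE 0.17, edgeR adjusted p = 0.000278), where 23.4% of all genes were called. It had 9.20 CPM in DMSO, 3.89 in EST, 13.0 in BAP and 4.44 in EST + BAP on average at 24 h. In EST + BAP against DMSO at 24 h, 1 of the 4 ligand genes tested rose and 1 fell, where 20.5% of all genes were called. EPFL6 rose (log2FC 1.87, SE 0.42, edgeR adjusted p = 0.00782), from 0.134 to 0.511 CPM, which is close to the floor. EPFL2 fell (log2FC -1.08, SE 0.13, edgeR adjusted p = 0.00029). The EPF1 and EPF2 genes, ligands of the stomatal lineage, had group means of at most 0.0763 CPM.

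The ERECTA signal is passed on inside the cell by a MAP kinase cascade and BSK kinases. All 7 genes of the ERECTA kinase cascade were tested, and at 24 h of EST 1 was higher, BSK1 (log2FC 0.51, SE 0.10, edgeR adjusted p = 0.00791), with a list median of 0.11, where 15.2% of all genes were called. At 24 h of BAP the MAP kinase gene MPK3 was the 1 gene lower (log2FC -1.23, SE 0.13, edgeR adjusted p = 7.45e-05), with a list median of -0.12, where 34.9% of all genes were called. MPK3 was higher in EST + BAP than in BAP alone at 24 h (log2FC 0.80, SE 0.12, edgeR adjusted p = 0.00107) and lower than in EST (log2FC -0.64, SE 0.10, edgeR adjusted p = 0.000643). YDA, MKK4, MKK5, MPK6 and BSK2 were not called in any comparison between 2 groups.

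Among the 10 PXY-like and CLE receptor kinase genes, all tested, 5 fell after 24 h of EST and 0 rose, with a median log2FC of -0.66 against 0.01 over all genes, of which 15.2% were called. PXC1, another gene co-expressed with PXY, had the largest change (log2FC -2.12, SE 0.11, edgeR adjusted p = 1.64e-05), followed by PXC3 (AT2G41820, log2FC -1.55, SE 0.14, edgeR adjusted p = 0.000133) and the CLE receptor genes BAM1 (log2FC -1.11, SE 0.10, edgeR adjusted p = 0.000106), BAM3 (log2FC -0.85, SE 0.14, edgeR adjusted p = 0.0029), named here beyond the limit of 4 per list, and PXY (log2FC -0.83, SE 0.11, edgeR adjusted p = 0.000854). With BAP for 24 h, 2 rose, PXC1 (log2FC 0.82) and BAM2 (log2FC 0.90), and 2 fell, CLV1 (log2FC -1.41) and PXL1 (log2FC -0.58), with edgeR adjusted p = 0.00033, 0.000359, 0.00014 and 0.0167 and a median of 0.12, where 34.9% of all genes were called. EST + BAP against EST gave 6 higher and 1 lower at 24 h, where 30.3% of all genes were called. At 4 h of BAP, BAM2 rose (log2FC 0.71, edgeR adjusted p = 0.00437) and CLV1 fell (log2FC -0.71, edgeR adjusted p = 0.00176), where 16.8% of all genes were called. Of the 8 other cambium genes, 7 were tested, and 6 fell with 24 h of EST (median -0.94), where 15.2% of all genes were called, LBD4 (log2FC -1.41, edgeR adjusted p = 0.00135) and WOX4 (log2FC -0.95, edgeR adjusted p = 0.000369) among them. At 4 h of BAP, where 16.8% of all genes were called, 3 of the 7 rose, LBD4 (log2FC 1.62), CYCD3;1 (log2FC 0.84) and ANT (log2FC 0.74), with edgeR adjusted p = 0.000503, 0.00334 and 0.0143.

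The genes whose levels ran most like those of each receptor kinase were found by Pearson's r of log2(CPM + 0.5) over the 24 libraries, centred within each time point, among 19533 genes. These points share treatments and libraries, so r is a description only. MOL1 ran most like BAM1 (r = 0.981), the class III HD-ZIP gene ATHB-15 (0.968) and RUL1 (0.964). RUL1 ran like AT1G05370 (0.967), AT1G47670 (0.965) and MOL1, and PXC2 like RUL1 (0.958), AT3G60380 (0.957) and AT5G67130 (0.947). ER ran like AT5G13140 (0.953), AT3G01870 (0.950) and CYP708A3 (0.950), and SKM1 like AT3G25130 (0.956), SMXL4, a gene of phloem formation (0.953), and AT5G14210 (0.949). Among the 5 genes themselves, r was highest for MOL1 with RUL1, the repressor and the promoter of lateral growth, and lowest for ER with SKM1 (0.713).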

How the data were processed

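The authors checked reads with FastQC, trimmed them with Trimmomatic 0.36, quantified them with kallisto 0.43.0 against the AtRTD2 transcripts and deposited estimated counts per gene, which were taken as whole numbers here. Groups were taken from the labels. Genes passing edgeR's filterByExpr (minimum count 10) were tested by the quasi-likelihood test (edgeR 4.0.16, TMM, R 4.3.3) with only the compared groups in the fit and Benjamini-Hochberg adjustment over all genes tested. Total counts per library were 14514022 to 45586679. The floor (3 counts) covers counting error only. Standard errors are the size of the log2 value over the square root of the edgeR F statistic, and include the spread between replicates. Alternatives were DESeq2 1.42.0, DESeq2 size factors, no low-count filter, organelle and ribosomal RNA genes left out, all 4 groups of a time point, a replicate block and each library left out. Whether same-numbered libraries deviate together from their group means was checked for pairing. Their correlation was over 0.1 for all 3 numbers in 7 of 12 pairs of groups, from -0.108 to 0.543 over all pairs, and missed it for DMSO with EST at both times. Copies were sought with blastn 2.17.0. P-values set a difference between groups against the spread between the 3 repeats of each group, as moderated by edgeR over all genes. The genes, lists and named-gene rule (all 6 genes, list genes called in the comparison described, at most 4 per list, and the 3 genes most alike) were chosen with earlier results of these data known.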

Additional observations from a re-analysis of the deposited data

Results flagged for a closer look

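For SKM1 the effect of EST differed with BAP at 24 h. The EST by BAP term was 1.12 on the log2 scale (SE 0.15, edgeR adjusted p = 0.00633), from a log2FC of -2.17 without BAP and -1.05 with it, and every EST + BAP library was above every EST library. Such a term was not particular to SKM1. It was also called for PXC1 (0.87, edgeR adjusted p = 0.0156), 1 of 10 PXY-like and CLE receptor kinase genes, and for ANT (1.27, edgeR adjusted p = 0.0176), 1 of 7 cambium genes tested, where 1.4% of all genes were called. For SKM1 the effect of EST also differed between the time points, with an EST by time term of -1.41 (SE 0.26, edgeR adjusted p = 0.0113), from a log2FC of -0.76 at 4 h and -2.17 at 24 h. This term was also called for 2 of 10 PXY-like and CLE receptor kinase genes, PXC1 (-1.64) and PXC3 (AT2G41820, -1.03), and for 2 of 7 cambium genes, ANT (-1.70) and LBD4 (-1.19). Of the 4 ERECTA family and co-receptor genes tested, SERK1 (-0.74) was called, where 5.18% of all genes were called. The 2 time points were separate experiments, so time and experiment cannot be told apart.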

How the results depend on the processing

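Of 70 log2 values (5 genes in 14 tests), 23 were called, and none of these changed sign in any of 286 alternative values, which were 0.738 to 1.27 times the main value. The number of genes called changed from 0 to 1 with DESeq2 for BAP against DMSO at 4 h, from 1 to 0 with all 4 groups in the fit for EST + BAP against BAP at 4 h, and from 1 to 2 with DESeq2 and to 3 with the replicate block for EST by time. The replicate block added ER (log2 term -1.79, edgeR adjusted p = 0.00947) and MOL1 (log2 term -0.62, edgeR adjusted p = 0.0237), and changed no other call. Same-numbered DMSO and EST libraries correlated at 0.543, -0.108 and 0.412 at 4 h and at 0.052, 0.073 and 0.134 at 24 h in their deviations from the group means. The cause was not tested. Without 1 library the number called was 0 to 1 for BAP against DMSO, EST + BAP against BAP and EST + BAP against EST at 4 h, and 1 to 2 for EST by time. For BAP against DMSO at 24 h the call of RUL1 held in 4 of 6 such fits.
Values that changed sign were all uncalled, of size 0.40 or less, and did so only without 1 library. Their log2 values then ran, in EST against DMSO at 4 h, from -0.38 to 0.43 for ER and from -0.426 to 0.0081 for MOL1. In EST + BAP against DMSO they ran from -0.13 to 0.21 for PXC2 and from -0.213 to 0.0349 for MOL1 at 4 h, and from -0.163 to 0.058 for PXC2 at 24 h. They ran from -0.485 to 0.0191 for ER in EST + BAP against BAP at 4 h, and from -0.17 to 0.63 for ER and -0.0881 to 0.333 for MOL1 in EST + BAP against EST at 4 h. The EST by BAP term at 4 h ran from -0.70 to 0.10 for ER, -0.29 to 0.13 for MOL1, -0.18 to 0.18 for RUL1, -0.27 to 0.15 for PXC2 and -0.13 to 0.20 for SKM1, and at 24 h from -0.17 to 0.41 for ER and -0.12 to 0.14 for PXC2. The BAP by time term of SKM1 ran from -0.0264 to 0.293. Depth limited ERL1, which had 36 counts in all, and ER, with as few as 31 counts in a library.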
